A study of Mus musculus with 6 samples.

Results

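The IL-6 family genes described here are 10 of the 17830 genes counted in cultured mouse skull osteoblasts, chosen by gene symbol. They encode the cytokines Il6, Lif, Osm and Il11, their ligand-binding receptors Il6ra, Lifr, Osmr and Il11ra1, the shared receptor chain Il6st (gp130) and the feedback inhibitor Socs3. Bulk RNA sequencing covered 6 libraries of mice at 6 months of age. The genotype was mOCN-Cre;Ai9 in 3 control libraries, and in the 3 APPswe libraries it was TgAPPswemOCN-Cre;Ai9. All mice carried mOCN-Cre, a knock-in that expresses iCre through a P2A peptide from the endogenous osteocalcin gene Bglap, and Ai9, which makes the red protein tdTomato after Cre has acted. The APPswe mice also carried a human APP transgene with the Swedish mutation behind a CAG promoter and a loxP-flanked stop cassette, so that Cre was required for its expression. Cells that grew out of cleaned skull fragments in culture were sorted for tdTomato, a sort meant to select cells in which Bglap had been active at some time, whether or not they made osteocalcin when harvested. The study describes the mice as male. The labels do not say whether each library came from another animal or culture, so p-values measure only the spread between these libraries, which may be technical. The comparison asks how expression of APPswe in osteoblast-lineage cells goes with the transcripts of this signalling family.

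Cytokines of the IL-6 family bind a ligand-specific receptor and then signal through gp130, either as a pair of gp130 chains (IL-6, IL-11) or as gp130 joined to LIFR or OSMR (LIF, oncostatin M). The receptors activate JAK kinases, which phosphorylate STAT3, and STAT3 in turn induces Socs3, whose protein binds gp130 and limits the signal. In bone, osteoblasts and their relatives both make and receive these cytokines, which act on bone formation and, through osteoblasts, on the formation of osteoclasts, the cells that resorb bone.

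In the GRCm38.p6 annotation of RefSeq, Il6 lies on chromosome 5 (chr5:30013114-30019975), Il11 on chromosome 7 (chr7:4772373-4782907) and Socs3 on chromosome 11 (chr11:117966079-117970336). Osm (chr11:4236785-4241026) and Lif (chr11:4257568-4272514) are neighbours with 16541 bases between them, and Osmr (chr15:6813568-6874968) and Lifr (chr15:7090610-7197489) lie 215641 bases apart. Il6ra lies at chr3:89869324-89913196, Il11ra1 at chr4:41760443-41769473 and Il6st at chr13:112464070-112506860. The 250 bases before an annotated start were taken from RefSeq for 9 of the 10 genes, in 12 windows because some genes have more than 1 start. They were searched on both strands for the letters of 5 motifs known to bind regulators of this family. These were AP-1 (TGANTCA), the core of the cyclic AMP response element (TGACGT), C/EBP (TTGCNNAAT), NF-kB (GGGA, then NN, then TTCC) and STAT (TTCNNNGAA). The NF-kB letters are narrower than its full consensus, so windows without them may hold other forms of that motif. The 4 windows with a match are printed 5′ to 3′ on the strand of the gene, with the matches in capitals, because they belong to the ligands Il6, Lif and Il11 and to the STAT3 target Socs3; the other 8 windows held none of these letters.
Il6 (chr5:30012864-30013113, plus strand): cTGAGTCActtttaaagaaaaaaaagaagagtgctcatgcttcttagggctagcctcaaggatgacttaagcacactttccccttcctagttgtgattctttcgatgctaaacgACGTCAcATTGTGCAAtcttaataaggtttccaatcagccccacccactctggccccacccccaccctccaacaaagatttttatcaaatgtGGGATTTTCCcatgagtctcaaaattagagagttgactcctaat
Lif (chr11:4257318-4257567, plus strand): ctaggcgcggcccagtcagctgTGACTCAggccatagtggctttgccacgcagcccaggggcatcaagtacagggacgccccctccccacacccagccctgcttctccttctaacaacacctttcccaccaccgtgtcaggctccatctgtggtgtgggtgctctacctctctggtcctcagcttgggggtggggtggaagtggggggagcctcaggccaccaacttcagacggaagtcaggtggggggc
Il11 (chr7:4778142-4778391, minus strand): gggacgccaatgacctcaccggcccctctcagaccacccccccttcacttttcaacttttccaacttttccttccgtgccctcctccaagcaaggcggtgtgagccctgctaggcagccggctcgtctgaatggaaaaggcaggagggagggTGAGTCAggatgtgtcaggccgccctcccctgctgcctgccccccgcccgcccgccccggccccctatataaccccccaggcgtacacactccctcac
Socs3 (chr11:117969367-117969616, minus strand): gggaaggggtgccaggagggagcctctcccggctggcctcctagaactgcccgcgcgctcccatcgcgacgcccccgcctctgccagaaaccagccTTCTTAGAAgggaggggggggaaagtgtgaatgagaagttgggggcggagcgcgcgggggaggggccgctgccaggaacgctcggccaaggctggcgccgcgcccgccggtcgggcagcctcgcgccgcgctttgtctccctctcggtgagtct
The Il6 window held 4 matches, TGAGTCA of AP-1 at 249 to 243 bases before the start, ACGTCA of the response element on the opposite strand at 136 to 131, ATTGTGCAA of C/EBP on the opposite strand at 129 to 121, and GGGATTTTCC of NF-kB at 44 to 35. Matches to AP-1 also stood in the Lif window, at 228 to 222 bases before the start, and in the printed Il11 window, at 98 to 92. Another Il11 window, at a start further upstream (chr7:4782858-4783107), was among those that held none of the letters. A match to the STAT letters stood in the Socs3 window at 154 to 146 bases. Of 32851 promoter windows of the same length, 6.75% held the AP-1 letters, 6.47% the response element, 2.11% C/EBP, 1.21% NF-kB and 7.02% STAT. The matches describe the sequence and do not show that any factor was bound.

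Each library held between 17263757 and 18398392 counts, and a floor of 3 counts corresponded to between 0.167 and 0.173 CPM (counts after TMM scaling of the libraries to a common size), a limit that covers counting error only. Control replicate 2 stood apart from every other library, and its library name, Ctrl-S, is the 1 name with an S where the others have an L. It held 2 counts over 4 Y-linked genes, where the others held between 2257 and 3406, which goes against the stated male sex, and 1 count of Bglap, where the others held between 115 and 204. The median of 12 osteoblast markers was 1.91 CPM there and between 32.7 and 44.1 CPM elsewhere, and 4 of the 12 were at or under the floor. Their sum was 20490 CPM there, against 20390 and 21420 CPM in control replicates 1 and 3. Runx2, Col1a1, Col1a2 and Sparc were higher there than in the other controls, at 27.9, 5705, 5732 and 2928 CPM. The rest of the 12 were lower there than in the other controls. Its counts differed from those of control replicates 1 and 3 by a chi-square per degree of freedom of 72.9 and 77.2, against 5.94 between those 2 libraries and 1.57 to 7.60 within APPswe. The results for the family are therefore also given without it. Reads of the human transgene were not analysed here, so the genotype labels were not checked against it. All 15 pairs of libraries differed beyond sampling noise, and the libraries were kept as separate replicates. The closest pair was APPswe replicates 2 and 3, at 1.57, against 7.10 and 7.60 for these with APPswe replicate 1. These values do not show whether the libraries came from separate animals or cultures.

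Markers of other cell types moved with genotype as well. The summed level of 13 macrophage markers ran from 8828 to 9531 CPM in the controls against 5809 to 6116 CPM in APPswe, with 7 lower and 1 higher by the test and none at 0. For 7 osteoclast markers, 5 of 6 tested were higher, and the sums were 143 to 223 against 646 to 662 CPM. For 7 skeletal muscle markers, 6 of 6 tested were higher, the sums were 0.520 to 5.73 against 95.6 to 102 CPM, and Ckm was at 0 in every control library. Endothelial markers summed to 26.8 to 196 CPM in the controls against 9.47 to 11.1 CPM in APPswe (1 of 5 lower), and fibroblast markers to 1318 to 2836 against 5257 to 5366 CPM (2 of 4 higher). The 12 osteoblast markers summed to 20390 to 21420 CPM in the controls against 16340 to 17210 CPM in APPswe (3 higher, 1 lower), and 5 neutrophil markers to at most 1.56 CPM in any library. Abundant single genes weighed heavily in these sums. Col3a1 averaged 1800 CPM in control and 4824 CPM in APPswe, and Pdgfra 73.7 and 171 CPM. Dcn averaged 350 and 234 CPM, and Lum 103 and 75.5 CPM. Spp1, the 1 lower osteoblast marker, averaged 8171 and 3569 CPM, and the 3 higher ones were Runx2, Sp7 and Sparc. Of all genes tested with the 6 libraries, 10.5% were higher and 12.0% lower. Without control replicate 2, 5 of 5 endothelial markers were lower. Of 12 osteoblast markers 4 were higher and 6 lower, of 4 fibroblast markers 2 and 2, and of 13 macrophage markers 2 and 10. The numbers higher were 6 of 6 osteoclast and 6 of 6 muscle markers. That fit called 23.3% of all genes higher and 25.0% lower. All 13 macrophage markers were counted in every library, although the cells are labelled as osteoblasts. The part of these differences in the results that follow was not tested, and in bulk RNA a change in the number of cells of a type cannot be told apart from a change in RNA per cell.

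Across the family, 5 of 10 genes rose in APPswe libraries (Il6, Lif, Osmr, Il6st and Socs3) and 0 fell, where passing the test means an adjusted p of at most 0.05 in edgeR's quasi-likelihood test, adjusted over the 13484 genes tested. Of all genes tested, 10.5% were higher and 12.0% lower. No family gene was lower at an unadjusted p under 0.05, by DESeq2 or by limma. The median log2 fold change was 0.77 over the 10 genes and -0.0033 over all genes, and 9 of 10 values were positive. Il6 was the 1 gene of the 10 that also passed a log2 fold change of 1, as 3.74% of all genes did upwards. In 7 of 10 genes every APPswe library stood above every control library, as did 22.8% of all genes. All 10 had passed the filter on low counts.

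Without control replicate 2, 6 of the 10 genes rose, Il11 being added, and 0 fell, with a median log2 fold change of 0.73. That fit called far more genes in general, 23.3% of 13753 genes higher and 25.0% lower, so both shares grew. Control replicate 2 was the lowest of the 6 libraries for 6 family genes and the highest for Il6ra.

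**Figure D1:**
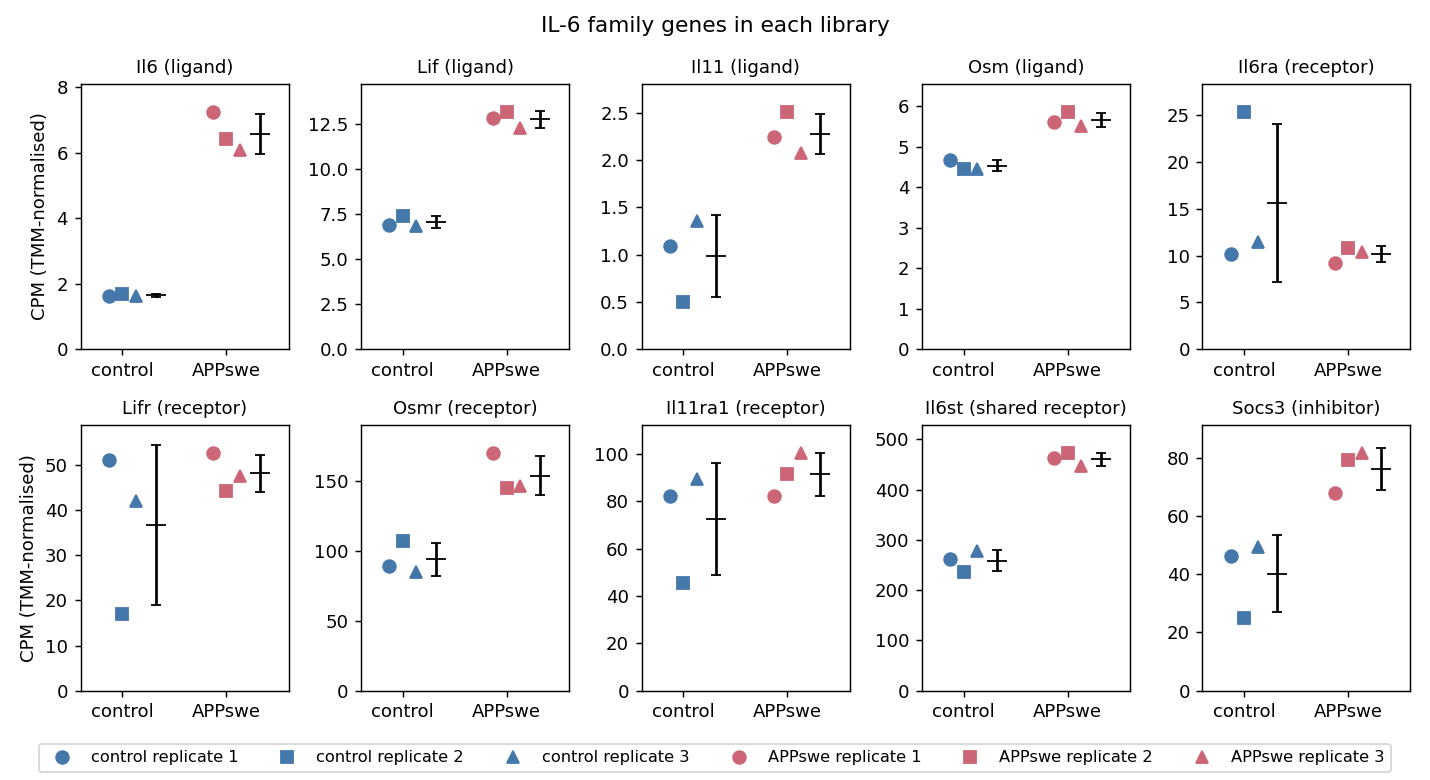
Level of the 10 IL-6 family genes in each library, in TMM-normalised CPM on linear axes that start at 0, with a panel per gene, blue control and red APPswe symbols (circle, square and triangle for replicates 1, 2 and 3) and the mean with its SD (n = 3) beside them. For Il6 the control libraries lie between 1.62 and 1.69 CPM and the APPswe libraries between 6.07 and 7.23 CPM, while control replicate 2, the blue square, lies far above the other controls for Il6ra and far below them for Lifr.

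Among the ligands, Il6 showed the widest separation. Il6 encodes interleukin-6, which promotes osteoclast formation through its action on osteoblast-lineage cells. It was at 1.62, 1.69 and 1.64 CPM in control replicates 1, 2 and 3 and at 7.23, 6.41 and 6.07 CPM in APPswe replicates 1, 2 and 3. The raw counts behind these levels were 28 to 30 per control library and 108 to 129 per APPswe library. Control replicate 2 stood close to its group for this gene, at 1.04-fold the mean of the other controls, and the groups did not overlap. Il6 rose 3.99-fold, a log2 fold change of 1.99 (SE 0.17, 95% interval 1.59 to 2.39, edgeR adjusted p = 0.000991, n = 3 per group). Without control replicate 2 the log2 fold change was 2.01 (edgeR adjusted p = 6.73e-06).

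Lif encodes leukaemia inhibitory factor, which signals through LIFR and gp130. Its level was 6.87, 7.42 and 6.83 CPM in the control libraries and 12.8, 13.2 and 12.3 CPM in the APPswe libraries. Every APPswe library lay above every control library, and the spread within each group was small beside the gap. Lif rose 1.81-fold, a log2 fold change of 0.86 (SE 0.11, 95% interval 0.58 to 1.13, edgeR adjusted p = 0.00395), and 0.90 without control replicate 2 (edgeR adjusted p = 7.86e-05).

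Il11 encodes interleukin-11, a cytokine that uses IL-11 receptor alpha and gp130 and is known to favour bone formation. Its level was low, at 1.10, 0.506 and 1.36 CPM in control replicates 1 to 3 and 2.24, 2.51 and 2.08 CPM in APPswe replicates 1 to 3. Counts were 19, 9 and 24 in control and 40, 45 and 37 in APPswe, so the groups did not overlap but rested on few reads. The log2 fold change of 1.20 (SE 0.36, 95% interval 0.35 to 2.05) did not pass (edgeR adjusted p = 0.0538). Without control replicate 2, the library with 9 counts, the value was 0.89 and did pass (edgeR adjusted p = 0.00898).

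Osm encodes oncostatin M, in many tissues a product of macrophages and other blood cells. It was measured at 4.68, 4.44 and 4.46 CPM in control and 5.61, 5.85 and 5.51 CPM in APPswe libraries. These groups did not overlap either, but the gap was narrow. The log2 fold change of 0.32 (SE 0.14, 95% interval -0.01 to 0.65) did not pass with all libraries (edgeR adjusted p = 0.147) or without control replicate 2 (0.31, edgeR adjusted p = 0.0885). Its neighbour Lif, on the same chromosome, had a log2 fold change of 0.86.

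Turning to the receptors, the shared chain and the oncostatin M receptor rose, and the 3 other ligand-binding chains did not pass the test. Il6st encodes gp130, the chain that all 4 of these cytokines need for signalling. Its level was 262, 236 and 278 CPM in the control libraries against 463, 472 and 446 CPM in the APPswe libraries. The spread within each group was small beside the gap between them. It rose 1.78-fold, a log2 fold change of 0.83 (SE 0.09, 95% interval 0.63 to 1.04, edgeR adjusted p = 0.00165), and 0.78 without control replicate 2 (edgeR adjusted p = 2.81e-06).

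Osmr encodes the receptor that joins gp130 to bind oncostatin M. It stood at 89.2, 107 and 85.1 CPM in control replicates 1, 2 and 3 and at 170, 145 and 146 CPM in APPswe replicates 1, 2 and 3. Control replicate 2 was the highest control, and still below every APPswe library. The rise was 1.64-fold, a log2 fold change of 0.71 (SE 0.11, 95% interval 0.44 to 0.99, edgeR adjusted p = 0.00748). It was 0.82 when control replicate 2 was left out (edgeR adjusted p = 1.57e-05).

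Il6ra encodes the alpha chain that binds interleukin-6. It was at 10.2, 25.3 and 11.4 CPM in the control libraries and at 9.25, 10.9 and 10.3 CPM in the APPswe libraries. Control replicate 2 held 2.35-fold the mean of the other controls, and the groups overlapped with and without it. The log2 fold change was -0.62 (95% interval -1.46 to 0.21, edgeR adjusted p = 0.242) with all libraries and -0.08 without control replicate 2 (95% interval -0.35 to 0.18, edgeR adjusted p = 0.586).

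Lifr encodes the receptor for leukaemia inhibitory factor. It lay at 51.2, 16.9 and 41.99 CPM in control and at 52.6, 44.3 and 47.5 CPM in APPswe libraries. Control replicate 2 held 0.363 of the mean of the other controls, whose range overlapped that of APPswe. Its log2 fold change was 0.39 (95% interval -0.47 to 1.25, edgeR adjusted p = 0.472), or 0.05 without control replicate 2 (edgeR adjusted p = 0.713).

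Il11ra1 encodes the alpha chain for interleukin-11, and its near-identical copy Il11ra2 had too few reads to be tested, so that reads shared by the copies leave the level of Il11ra1 uncertain. The values were 82.2, 45.6 and 89.6 CPM in control and 82.4, 91.5 and 100 CPM in APPswe. Again control replicate 2 was the low library and the remaining ones overlapped. The log2 fold change was 0.33 (95% interval -0.24 to 0.91, edgeR adjusted p = 0.357) and 0.09 without control replicate 2 (edgeR adjusted p = 0.414). For these 3 receptors, leaving out control replicate 2 thus brought the log2 fold change to between -0.08 and 0.09.

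Socs3 encodes the inhibitor that STAT3 induces and that dampens gp130. It was at 46.3, 25.0 and 49.2 CPM in control replicates 1, 2 and 3 and at 68.0, 79.2 and 81.5 CPM in APPswe replicates 1, 2 and 3. The groups did not overlap, with control replicate 2 at 0.523 of the mean of the other controls. Socs3 rose 1.90-fold, a log2 fold change of 0.93 (SE 0.25, 95% interval 0.34 to 1.51, edgeR adjusted p = 0.0389), and 0.68 without control replicate 2 (edgeR adjusted p = 0.000125). This call was the least secure of the 5, since the adjusted p was 0.0654 without control replicate 1 and 0.0918, 0.127 and 0.131 without APPswe replicates 1, 2 and 3 in turn, all by edgeR. It was also lost when the naming style of the libraries, described below, entered as covariate (edgeR adjusted p = 0.0743).

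**Figure D2:**
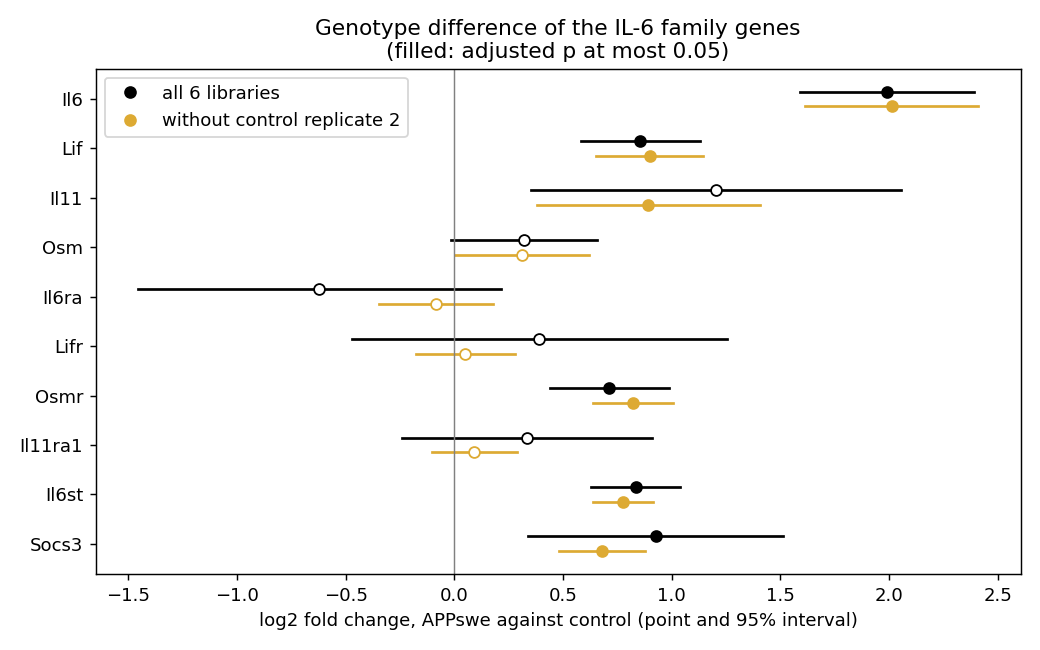
Log2 fold change of APPswe over control for the 10 genes, with 95% intervals from edgeR, for all 6 libraries (black) and without control replicate 2 (yellow), filled where the adjusted p was at most 0.05. Il6, Lif, Osmr, Il6st and Socs3 are filled in both fits and Il11 only in the second, and the intervals of Il6ra, Lifr and Il11ra1 cover 0 in both and are narrower in the second.

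The names of the libraries are of a hyphen style (control replicates 1 and 2, APPswe replicate 1) and of a style without it (control replicate 3, APPswe replicates 2 and 3), what the styles mark is not stated, and the first holds Ctrl-S, so the difference was also taken within each style. In log2 CPM, APPswe minus control was 2.06 in the first style and 1.86 in the second for Il6, 0.84 and 0.88 for Lif, 0.90 and 0.73 for Il6st, 0.80 and 0.77 for Osmr, and 1.00 and 0.71 for Socs3. The 5 genes that rose thus had the same sign and like sizes in both. Il11 had 1.45 and 0.71 and Osm 0.29 and 0.34, whereas Lifr had 0.83 and 0.13, Il11ra1 0.43 and 0.10, and Il6ra -0.79 and -0.10.

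Levels of different genes can be compared only per length, for which the FPKM values of the deposited table were used. In control libraries Il6st stood at 48.5 ± 3.57 FPKM (SD, n = 3) and Il11ra1 at 46.9 ± 15.1, followed by Osmr at 19.96 ± 2.61 and Socs3 at 15.7 ± 5.12. Il6ra at 4.89 ± 2.65, Lifr at 4.35 ± 1.86 and Osm at 2.67 ± 0.0872 FPKM came next, before Il6 at 1.81 ± 0.0416, Lif at 1.81 ± 0.104 and Il11 at 0.570 ± 0.262. The library ranges of Il6st and Il11ra1, Osmr and Socs3, Il6ra and Lifr, Lifr and Osm, and Il6 and Lif overlapped, so the order within these pairs was not resolved. In APPswe libraries the order began the same way, with Il6st at 90.9 ± 2.98, Il11ra1 at 62.3 ± 5.57, Osmr at 34.4 ± 3.40 and Socs3 at 31.5 ± 2.73 FPKM. Il6 came next at 7.67 ± 0.795, up from place 8 to place 5, ahead of Lifr at 5.70 ± 0.527, Osm at 3.52 ± 0.115, Lif at 3.41 ± 0.117, Il6ra at 3.34 ± 0.248 and Il11 at 1.43 ± 0.185. Here the neighbours Osmr and Socs3, Osm and Lif, and Lif and Il6ra overlapped. In control libraries every receptor chain and Socs3 thus lay above every ligand, except that Lifr overlapped Osm. In APPswe libraries Il6 lay above its own receptor Il6ra, with separate ranges of 7.01 to 8.55 and 3.07 to 3.56 FPKM.

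**Figure D3:**
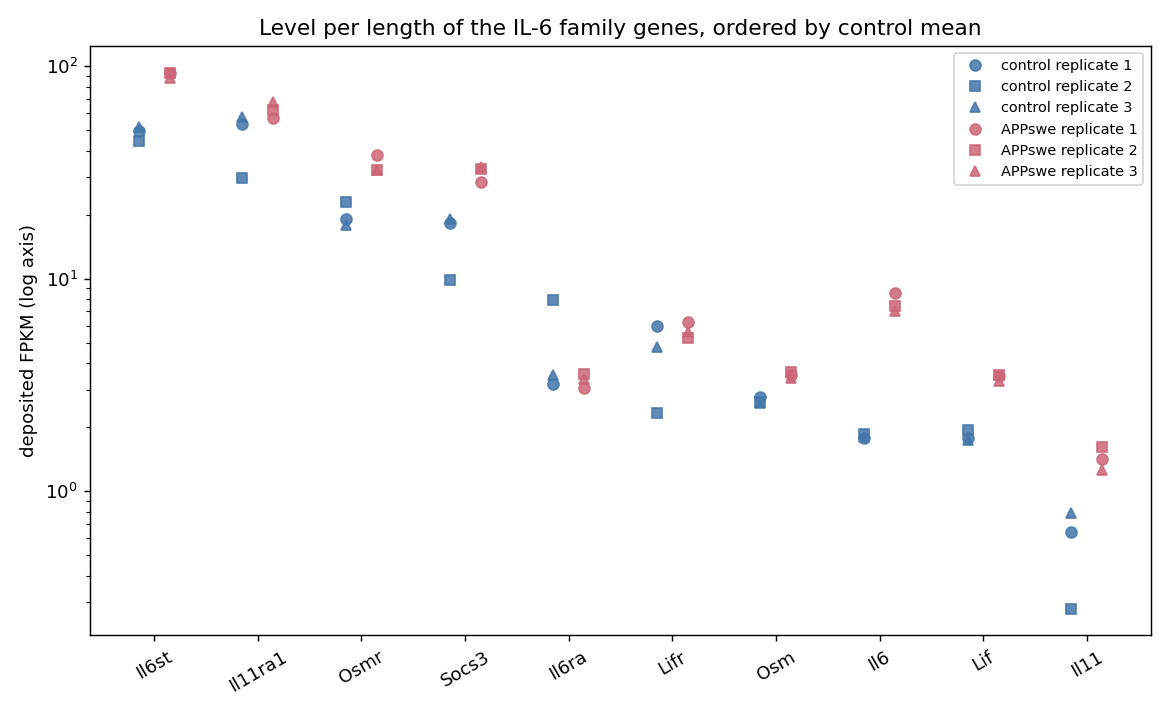
Level per length of the 10 genes in deposited FPKM on a log axis, ordered by the control mean, with a symbol for each library (blue control, red APPswe). Il6st and Il11ra1 head both groups, Il11 is last in both, and Il6 lies near Lif in control but above Lifr in APPswe libraries.

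The genes whose pattern over the 6 libraries was most like that of Il6 or Socs3 were ranked by the mean absolute difference in centred log2 CPM, among 12937 genes. For Il6 these were Adam12, an ADAM metalloprotease known from muscle cell fusion, at 0.0438, Ldb3, a protein of the muscle Z-disc, at 0.0604, and Tnfsf15, a cytokine of the TNF family, at 0.107. Their log2 fold changes of 1.94, 2.07 and 1.79 passed the test, as did that of Il6 (edgeR adjusted p = 0.000287, 0.000741 and 0.00204). For Socs3 they were Igsf3 at 0.0577, Zfr2 at 0.0601 and Clmp at 0.0616, with log2 fold changes of 0.90, 0.97 and 0.93 (edgeR adjusted p = 0.0430, 0.0595 and 0.0373). Igsf3 and Clmp, like Socs3, missed the threshold in several fits that left out 1 library, up to an edgeR adjusted p of 0.142 and 0.124. The libraries share 1 contrast and 1 deviating control, which such likeness includes.

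Around the 10 genes, 6 lists of the pathway held 62 genes that were tested, of which 5 were higher, 6 lower and 51 did not pass, with a median log2 fold change of -0.05. These shares can be read against the 10.5% higher and 12.0% lower among all genes. Without control replicate 2 the numbers were 15 higher and 15 lower, where 23.3% and 25.0% of all genes were called in those directions.

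Among 7 tested ligands and receptors of the wider family, 1 was higher and 0 lower (also 0 lower at an unadjusted p under 0.05, by DESeq2 and by limma), with a median log2 fold change of -0.13. Clcf1 encodes a cytokine that binds the ciliary neurotrophic factor receptor together with gp130 and LIFR. Clcf1 was at 13.1, 10.4 and 13.7 CPM in control libraries and 28.4, 33.2 and 33.6 CPM in APPswe libraries. Every APPswe library lay above every control library. Clcf1 rose by a log2 fold change of 1.36 (SE 0.14, edgeR adjusted p = 0.00165) and passed in each of the 6 fits that left out 1 library. Its alpha receptor Cntfr had a log2 fold change of -0.55 and did not pass (edgeR adjusted p = 0.290).

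Of 11 signal transducers, 1 was higher and 1 lower, with a median log2 fold change of -0.05. Gab1, a docking protein that links gp130 to the MAP kinase and PI3 kinase routes, averaged 18.2 ± 3.02 in control and 27.1 ± 0.804 in APPswe (CPM, SD, n = 3 per group), a log2 fold change of 0.57 by edgeR (adjusted p = 0.0286). Grb2, an adaptor of the MAP kinase route, averaged 211 ± 11.9 and 169 ± 2.71, a log2 fold change of -0.33 by edgeR (adjusted p = 0.0229). Neither held in most fits that left out 1 library, with adjusted p-values of up to 0.110 for Gab1 and 0.112 for Grb2. The kinase and the transcription factor at the core of the route showed small differences, with log2 fold changes of -0.03 for Jak1 (edgeR adjusted p = 0.825) and 0.05 for Stat3 (edgeR adjusted p = 0.729). Jak2, a further kinase of gp130, had 0.39 (edgeR adjusted p = 0.0653, and 0.00165 without control replicate 2), and Ptpn11, the phosphatase SHP2 that binds gp130 at the site of SOCS3, had -0.28 (edgeR adjusted p = 0.0662, and 0.0282 without control replicate 2).

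Among 12 further inhibitors, 1 was higher and 1 lower, with a median log2 fold change of -0.01. Socs1, a relative of Socs3 that inhibits JAK kinases, was at 1.91, 2.53 and 3.27 CPM in control and 3.53, 6.96 and 6.41 CPM in APPswe. The groups nearly met, and the log2 fold change of 1.13 passed narrowly (SE 0.33, edgeR adjusted p = 0.0489), with a highest value of 0.173 when single libraries were left out. Ptpn6, the phosphatase SHP1 of blood cells, averaged 217 ± 2.62 in control and 124 ± 5.83 in APPswe (CPM, SD, n = 3 per group). It fell by 0.81 on the log2 scale (SE 0.07, edgeR adjusted p = 0.00103) and passed in all 6 fits with 1 library left out. Of 13 macrophage markers, 7 were lower and 1 higher in the same comparison, as given above, and a link to Ptpn6 was not tested.

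Of 18 STAT3 target genes, 2 were higher and 2 lower, with a median log2 fold change of 0.17. Fos, a subunit of AP-1, averaged 35.9 ± 12.1 in control and 91.0 ± 5.92 in APPswe (CPM, SD, n = 3 per group), a log2 fold change of 1.34 by edgeR (adjusted p = 0.0119, and up to 0.0572 without APPswe replicate 2 or 3). Nfil3, a transcriptional regulator of many immune cells, rose from 18.2 ± 1.43 to 28.5 ± 1.31 CPM, a log2 fold change of 0.64 by edgeR (adjusted p = 0.00669). In the other direction, Bcl2l1, which encodes the survival protein Bcl-xL, went from 185 ± 15 to 87.1 ± 5.89 CPM, a log2 fold change of -1.09 by edgeR (adjusted p = 0.000991). Bcl6, a transcriptional repressor, had -0.28 (edgeR adjusted p = 0.0342, and up to 0.134 when single libraries were left out). Without control replicate 2, 6 were higher and 7 lower, in a fit that called 23.3% of all genes higher and 25.0% lower. Both counts can be read against these shares and, with all libraries, against 10.5% and 12.0%.

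Of 4 genes of receptor shedding, 0 were higher (0 at an unadjusted p under 0.05, by DESeq2 and by limma) and 1 lower. Rhbdf2, the pseudoprotease that carries ADAM17 to the cell surface, had a log2 fold change of -0.41 by edgeR (adjusted p = 0.0294, and up to 0.114 when single libraries were left out). Of 10 regulators of Il6 transcription or mRNA decay, 0 were higher (1 at an unadjusted p under 0.05, 0 by DESeq2 and by limma) and 1 lower. That 1 was Jun, the other main AP-1 subunit beside Fos, at 179 ± 19.0 in control and 133 ± 3.74 in APPswe (CPM, SD, n = 3 per group), a log2 fold change of -0.43 by edgeR (adjusted p = 0.0221, and up to 0.107 when single libraries were left out). The medians of these lists were -0.10 and -0.00052. The AP-1 letters printed above in the Il6, Lif and Il11 windows are those to which dimers of Fos and Jun bind, and no binding was measured here.

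**Figure D4:**
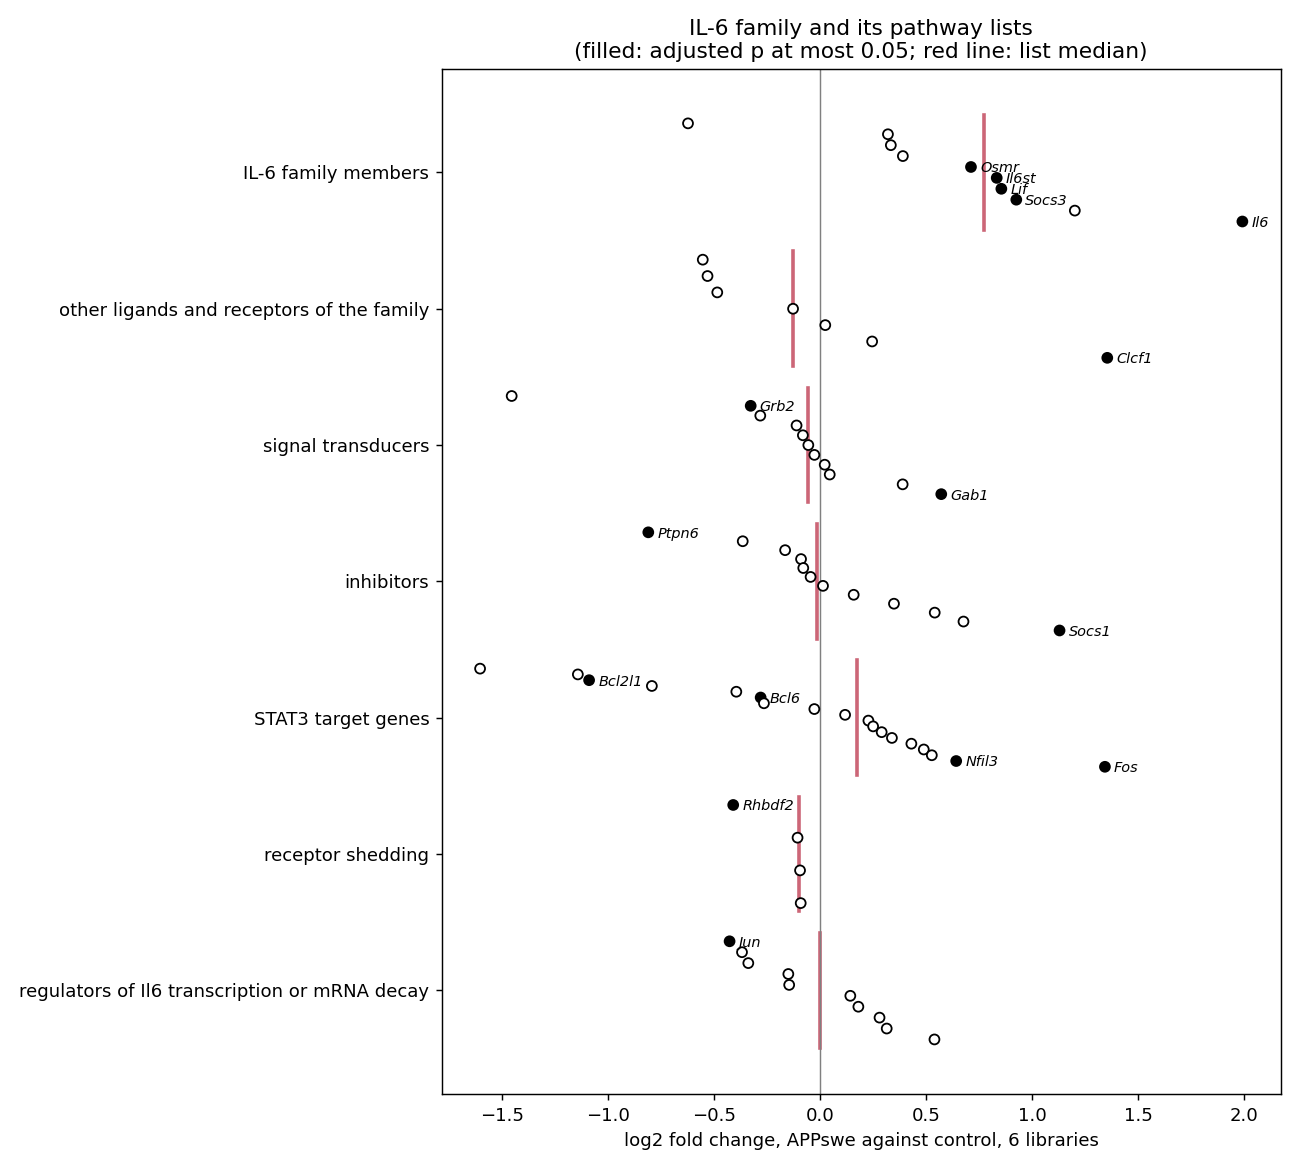
Log2 fold change of APPswe over control for the 10 family genes and each tested gene of the 6 pathway lists, with a point for each gene, filled and named where it passed the test, and the list median as a red line. The family genes lie mostly above 0, with a median of 0.77, while the medians of the 6 lists lie between -0.13 and 0.17.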

How the data were processed

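Bulk RNA sequencing of 6 libraries, 3 control and 3 APPswe, was analysed from the files the authors deposited, with groups and replicate numbers taken from the sample labels. Libraries were made with a SMARTER mRNA kit and sequenced on the DNBseq platform, after a check of RNA integrity, and whether counting used strand, the aligner and the counter are not given in the sources used here. The genome build is GRCm38 in the submitters' processing notes. The authors deposited whole read counts per gene, without normalization, and FPKM values rounded to few decimals, whose blank cells (in 397 genes for libraries named with a hyphen and 716 for the others, none of them in the 10 family genes) were read as 0. Columns of log2 fold changes and p-values, also deposited, hold the authors' own comparison and were not used. Columns mapped to no sample numbered 0.

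The tests were run with edgeR 4.0.16 under R 4.3.3. TMM normalization and filterByExpr were applied, 13484 of 17830 genes were tested with the quasi-likelihood test (glmQLFit and glmQLFTest) without a covariate, with Benjamini-Hochberg adjustment over all of them. The standard error was the size of the log2 fold change over the square root of F. A gene passed where its adjusted p was 0.05 or less, and a log2 fold change of at least 1, the study's second threshold, was noted apart. Alternatives covered the tool (DESeq2 1.42.0), the scaling (DESeq2 size factors in edgeR), the filter (none, or at least 10 counts in every library), covariates (a replicate block, the naming style of the libraries), fits that omit 1 library each, and limma 3.58.1 on log2(FPKM + 1) or log2(FPKM + 0.1). On simulated data drawn for this comparison, with a log2 fold change of 2 given to 200 genes, edgeR recovered 176 of the 193 that passed its filter and called 13 unchanged genes among 13372 tested. The simulation gave no library a deviation like that of control replicate 2, so it does not show how the fit behaves with such a library.

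The family genes, the pathway lists and the marker lists were chosen with earlier results of these data known. Named are the 10 family genes, up to 6 genes per direction and list with the lowest adjusted p among those that passed, Jak1, Jak2, Stat3 and Ptpn11, and the 3 genes of mean level at least 1 CPM nearest in pattern to Il6 and to Socs3. An item of the pathway lists is not reported here and was left out of their counts. Cntfr, Ckm and Bglap were named after their values were seen. Promoter windows and gene positions come from RefSeq tables of GRCm38.p6.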

Additional observations from a re-analysis of the deposited data

How the results depend on the processing

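Of 139 values of the 10 family genes under alternatives, 128 kept their direction and their side of the threshold, 6 lost the call, 5 gained it and 0 reversed. Il6, Lif, Osmr and Il6st passed in all 14 alternatives. The log2 fold change of Il6 ranged from 1.92 to 2.05 when single libraries were left out and from 1.62 to 2.03 otherwise. The number of family genes higher was 4 to 6 with single libraries left out, and 1 with a log2 fold change of at least 1 required as well. Osm passed under limma on log2(FPKM + 1) at 0.30 (adjusted p = 0.0379) and on log2(FPKM + 0.1) at 0.39 (adjusted p = 0.0472), and Il11 at 0.64 (adjusted p = 0.0218) and 1.27 (adjusted p = 0.0390). With single libraries left out, Il11 ranged from 0.89 to 1.496 (edgeR adjusted p = 0.00898 to 0.180) and Socs3 from 0.68 to 1.09 (edgeR adjusted p = 0.000125 to 0.131). With the naming style of the libraries as covariate, Socs3 was at 0.82 (edgeR adjusted p = 0.0743). Il11 gave no value with at least 10 counts in every library. The causes of these changes were not tested.

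Higher pathway genes numbered 2 to 15 and lower ones 2 to 15 with single libraries left out, against 5 and 6 with all libraries. The highest counts came without control replicate 2, and the lowest number of higher genes without APPswe replicate 2 or 3. Lower ones numbered 3 under limma on either pseudocount. With a log2 fold change of at least 1 required, 3 were higher and 1 lower. All genes that passed numbered 3036 in the main fit, 990 with that requirement, and 1024 to 6637 with single libraries left out.

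The replicate numbers were not taken to pair libraries, since same-numbered libraries had correlations of their deviations of 0.0736, -0.0364 and 0.158, and not every library correlated best with its own number. With the replicate block, 2021 genes passed, among them 4 of the family, and Socs3 was at 0.98 (edgeR adjusted p = 0.0668). Il11 rested on 9 to 45 counts per library.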
